A study of Mus musculus with 12 samples.

Results

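The report concerns 6 enzymes of cholesterol biosynthesis in brain tissue of Ercc1 knockout mice: Hmgcs1, Idi1, Fdft1, Cyp51, Msmo1 and Nsdhl. They were taken as every probe set to which the authors' short lists of selected probe sets give 1 of these gene names, with the older name Sc4mol read as Msmo1. This gave 8 of 45037 probe sets, 2 each for Hmgcs1 and Fdft1 and 1 each for the other 4 genes. All 8 stand in the authors' hippocampus list and 1, that of Idi1, also in their cerebellum list. Because probe sets outside these lists carry no gene name here, the 8 could be found only through a difference between the genotypes on the hippocampus arrays. Any other probe set of these genes, with or without such a difference, could not be found. Their difference in hippocampus is therefore described below and supports nothing by itself.

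RNA was measured on Affymetrix Mouse Genome arrays in 4 groups of 3 arrays, all from mice at postnatal day 21 that came from FVB and C57BL/6 crosses. The groups were hippocampus of Ercc1-/- mice (KO), hippocampus of their Ercc1+/+ littermates (WT), cerebellum of KO mice and cerebellum of WT mice. The labels name no other allele or agent, and how the KO allele was made is left to an earlier publication, not used here. Both regions were whole tissue, so fewer cells of a type and less RNA per cell cannot be told apart.

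Cholesterol in the brain is made locally, since the blood-brain barrier keeps out lipoprotein cholesterol, and in young animals oligodendrocytes use much of it for myelin while astrocytes also make it. Synthesis runs from acetyl-CoA through mevalonate to isoprenoid units, which are joined to squalene, folded to lanosterol and trimmed to cholesterol. When membrane sterol is low, SREBP transcription factors are released and bind sterol regulatory elements in the promoters of these genes, usually beside sites for NF-Y and Sp1.

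The 6 genes lie on 5 chromosomes (GRCm38.p6, RefSeq gene bounds). Hmgcs1 spans chr13:119690351-119708260, Idi1 chr13:8885606-8892396, Fdft1 chr14:63145150-63181687, Cyp51 chr5:4080674-4104697, Msmo1 chr8:64718123-64733578 and Nsdhl chrX:72918521-72958528. The RefSeq promoter table matched 5 of the 6 genes, all but Fdft1. The 8 probe sets of the 6 genes had lower KO than WT means in both regions. For this reason the 250 bases before the annotated start are printed for 3 of the genes. They are Hmgcs1, whose window holds the longest form of the sterol element searched, Idi1, which had the largest difference between genotypes, and Msmo1, which holds the short form. The windows are chr13:119690101-119690350 on the plus strand for Hmgcs1, chr13:8885356-8885605 on the plus strand for Idi1 and chr8:64733579-64733828 on the minus strand for Msmo1. Each is written 5′ to 3′ toward its gene, and capitals mark matches to TCACNCC or TCACNCCAC (forms of the sterol regulatory element) and to CCAAT (the NF-Y box) on either strand, so that a box on the other strand reads ATTGG.
Hmgcs1: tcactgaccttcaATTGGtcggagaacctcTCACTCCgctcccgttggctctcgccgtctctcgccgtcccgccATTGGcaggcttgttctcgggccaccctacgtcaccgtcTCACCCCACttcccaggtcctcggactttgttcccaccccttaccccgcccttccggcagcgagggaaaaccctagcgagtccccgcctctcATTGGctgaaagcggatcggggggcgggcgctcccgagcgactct
Idi1: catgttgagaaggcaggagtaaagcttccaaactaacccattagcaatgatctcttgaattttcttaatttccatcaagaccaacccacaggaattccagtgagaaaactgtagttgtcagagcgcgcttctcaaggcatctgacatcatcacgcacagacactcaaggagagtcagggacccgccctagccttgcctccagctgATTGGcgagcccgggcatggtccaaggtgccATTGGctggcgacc
Msmo1: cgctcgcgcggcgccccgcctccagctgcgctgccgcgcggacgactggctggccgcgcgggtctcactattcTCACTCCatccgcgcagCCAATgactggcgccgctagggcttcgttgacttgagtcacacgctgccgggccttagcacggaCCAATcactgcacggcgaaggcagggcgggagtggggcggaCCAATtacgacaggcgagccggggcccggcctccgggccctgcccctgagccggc

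The search also covered the 50 bases from the start onward and the Sp1 box GGGCGG, always on both strands. TCACNCCAC contains TCACNCC, so those searches overlap. The long form was found once among the 5 genes, as TCACCCCAC from -137 to -129 of Hmgcs1, counted with 0 at the annotated start. It is held by 1.24% of the 32817 windows of the table. The short form was found in 2 of the 5 windows, Hmgcs1 and Msmo1, against 15.6% of all windows. A CCAAT box was found in all 5 windows, against 37.4% of all windows, with 4 matches in Hmgcs1, 4 in Nsdhl, 3 in Msmo1, 2 in Idi1 and 1 in Cyp51. GGGCGG was also found in all 5, against 35.6% of all windows. A match describes these letters and shows no binding, and a window without one says only that the letters are not there.

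**Figure D1:**
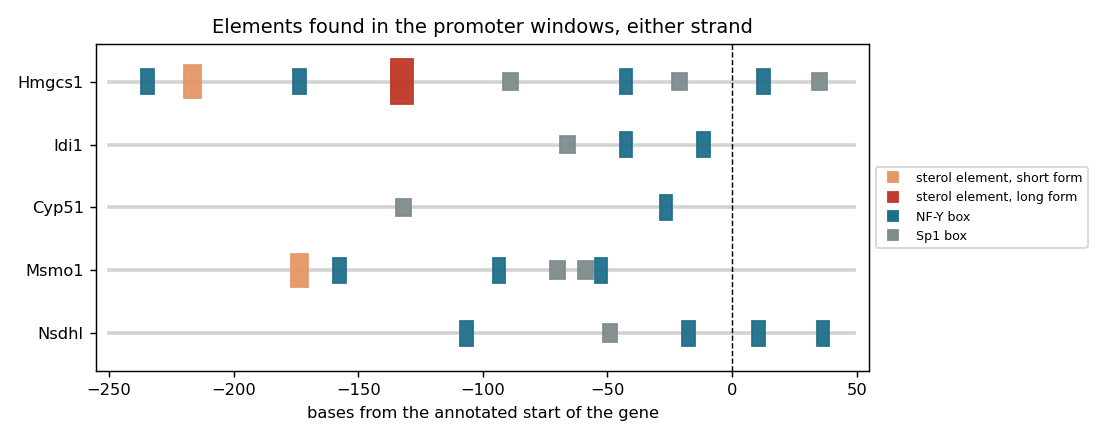
Positions of matches in the promoter windows of 5 of the genes, in bases from the annotated start (dashed line at 0), on either strand. The long form of the sterol element stands in Hmgcs1 alone, and each of the 5 windows holds at least 1 NF-Y box and 1 Sp1 box.

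The deposited values are linear dChip intensities, which estimate the signal of a probe set on an array from all its probes. Array medians of intensity ran from 154.4 to 168.2, while the 90th percentile lay between 1483 and 1520.4 on hippocampus arrays and between 1048 and 1089 on cerebellum arrays. The regions were deposited in separate tables, so levels are set side by side between regions without a test. Ercc1, the gene knocked out, encodes a subunit of a DNA repair nuclease. It had intensities of 49.8, 64.9 and 65.9 on KO and 189.8, 223 and 175 on WT hippocampus arrays, and 55.9, 64.7 and 70.3 on KO and 223, 170.2 and 115 on WT cerebellum arrays. Every KO array thus lay below every WT array of its region, although it is not known whether these probes cover the disrupted sequence. Of 10 hippocampal and 11 cerebellar neuron markers 1 gene could be named, Neurod1, which is on both lists, so the tissue labels could not be checked further. Some arrays varied together across genotypes: over 23283 probe sets, the deviation of hippocampus KO 1 from its group mean correlated with that of WT 1 at r = 0.688, and that of KO 2 with that of WT 3 at r = 0.745. The deviation of cerebellum KO 1 correlated with those of the hippocampus arrays at r from -0.615 for WT 3 to 0.655 for WT 1. Cerebellum KO 1 had a 3′ to 5′ ratio of the Gapdh control of 1.497, where the remaining 5 arrays of that region had 0.999 to 1.2. This ratio was computed for the cerebellum arrays only, so it says nothing of the hippocampus arrays.

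The first comparison asked whether the transcripts of these enzymes differed between KO and WT hippocampus. Every member probe set was lower on all 3 KO arrays than on all 3 WT arrays, as were 4.44% of all probe sets tested. A KO mean below the WT mean was found for 47.4% of all probe sets tested. KO means were between 49.9% and 74.2% of WT means. Idi1 stood apart at 49.9%, and the remaining 7 probe sets lay between 65.0% and 74.2%. The test used below is limma on log2(intensity + 32), whose log2 differences understate those of dim probe sets, with p-values adjusted by Benjamini-Hochberg over 27022 probe sets. No member passed an adjusted p of 0.05 (0 of 8), and neither did any other probe set (0%).

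The first enzyme in order is Hmgcs1, the cytosolic synthase that joins acetyl-CoA and acetoacetyl-CoA to HMG-CoA just before the rate-limiting reductase. On probe set 1433443_a_at it had intensities of 4729, 3940.3 and 5237 in KO hippocampus and 7464, 7241 and 5782 in WT hippocampus. On probe set 1433445_x_at, designed on the same sequence accession, it had 4324, 4218 and 5144 in KO and 6268, 6650.2 and 5533 in WT. The KO array of replicate 3 came closest to WT on both probe sets, and the groups did not overlap. The log2 difference was -0.56 ± 0.13 on the first and -0.43 ± 0.10 on the second (SE, n = 3 arrays per group, limma adjusted p = 0.9999 for both). The ending x in a probe set name marks probes that can match other sequences as well.

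Idi1 turns isopentenyl diphosphate into dimethylallyl diphosphate, the starter unit of isoprenoid chains. Its probe set 1423804_a_at had intensities of 499, 574 and 562 in KO hippocampus and 1195, 1129 and 954 in WT hippocampus. All KO arrays lay far below the lowest WT array, and the KO mean was 49.9% of the WT mean. The log2 difference was -0.96 ± 0.12 (SE, n = 3 per group), with a 95% interval from -1.23 to -0.69 and a limma adjusted p of 0.263. When 1 fit over all 12 arrays pooled the spread of both regions, the same difference had an adjusted p of 0.0239 and passed. It also passed with the leading residual component of the hippocampus arrays as a covariate (adjusted p = 0.0309). No other member passed in any alternative that kept the adjusted p.

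Fdft1 is squalene synthase, which joins farnesyl diphosphate to squalene and commits the pathway to sterols. Probe set 1438322_x_at had intensities of 1533, 1379 and 1615 in KO and 2411, 2064 and 1991 in WT hippocampus. Probe set 1448130_at had 1049, 1184 and 1314 in KO and 1489, 1763 and 1571 in WT hippocampus. Neither pair of groups overlapped. The log2 differences were -0.50 ± 0.11 and -0.44 ± 0.11 (SE, n = 3 per group, limma adjusted p = 0.939 and 0.9999).

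The last 3 enzymes work on lanosterol and its products. Cyp51, the lanosterol demethylase, had intensities of 1179, 1166 and 1491 in KO and 1831, 2256 and 1819 in WT hippocampus. Msmo1, which oxidises methyl groups of the sterol ring, had 1888, 1935 and 2489.5 in KO and 2785, 3346 and 2933 in WT hippocampus. Nsdhl, the dehydrogenase that completes the removal of such methyl groups, had 762, 649.9 and 958 in KO and 1101, 1280.1 and 1152 in WT hippocampus. In all 3 genes KO replicate 3 was the highest KO array and still lay below every WT array. The log2 differences were -0.61 ± 0.13 for Cyp51, -0.52 ± 0.13 for Msmo1 and -0.57 ± 0.15 for Nsdhl (SE, n = 3 per group), with limma adjusted p of 0.9997, 0.9999 and 0.9999.

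**Figure D2:**
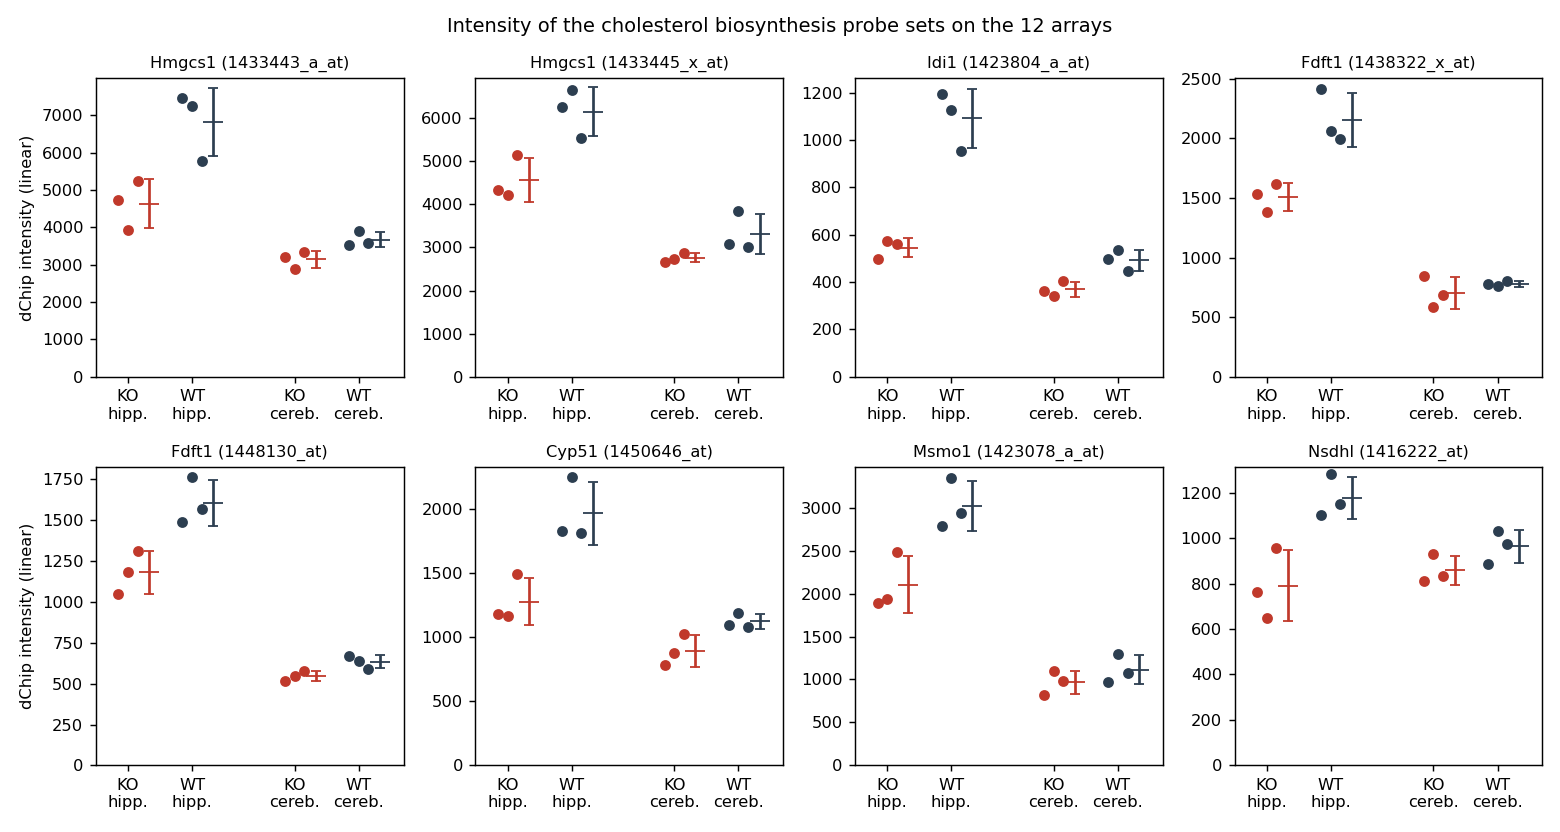
Linear dChip intensity of each member probe set on the 12 arrays, by region and genotype; points are arrays in replicate order, and bars give the mean ± SD of 3 arrays. In hippocampus the KO points lie below the WT points in all 8 panels, while in cerebellum the distance is smaller and 3 panels overlap.

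Across the 8 probe sets the median log2 difference in hippocampus was -0.54, against 0.01 over all 27022 probe sets tested. All 8 had arrays of KO and WT that did not overlap with KO lower, as did 4.44% of all probe sets, and all 8 had an unadjusted limma p under 0.05 with KO lower, as did 2.18%. Nothing can be read from these counts, since the authors' list that names the members was made from the same contrast. In the authors' deposited table the signed fold change (below 0 for lower KO) runs from -2 for Idi1 to -1.34 for Hmgcs1 1433445_x_at. Their unadjusted p runs from 0.00948 for Idi1 to 0.0343 for the same Hmgcs1 probe set. The exact permutation test, two-sided, gave p = 0.1 for each of the 8, the smallest that 3 against 3 arrays allow.

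In cerebellum all 8 probe sets had KO means below WT means, as did 55% of all probe sets tested, at 75.2% to 90.3% of WT, a smaller distance than in hippocampus for each of them. The probe sets of Idi1 and Hmgcs1, Cyp51 and 1 of Fdft1 had no overlap between KO and WT arrays. Those of Msmo1, Nsdhl and the other Fdft1 probe set overlapped. No member passed the adjusted threshold (0 of 8), and neither did any other probe set (0%).

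Idi1 had intensities of 363, 343 and 405 in KO and 496, 534 and 446 in WT cerebellum. Every KO array lay below every WT array, at 75.2% of the WT mean. Its log2 difference of -0.38 ± 0.11 (SE, n = 3 per group) had a 95% interval from -0.64 to -0.13 and a limma adjusted p of 0.895. This is the 1 member in the authors' cerebellum list, where the authors' deposited table gives a signed fold change of -1.33 and an unadjusted p of 0.0216.

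The other 7 probe sets were not chosen on the cerebellum arrays. Cyp51 had intensities of 781, 877 and 1027 in KO and 1098, 1191 and 1085 in WT cerebellum, without overlap, and a log2 difference of -0.33 ± 0.12. Hmgcs1 1433443_a_at had 3208, 2887 and 3338 in KO and 3516, 3913 and 3586 in WT, again without overlap, and a log2 difference of -0.22 ± 0.08. Its second probe set 1433445_x_at had 2663, 2739.9 and 2877 in KO and 3071, 3853 and 3002 in WT, with a log2 difference of -0.25 ± 0.11. WT replicate 2 was the highest array on both Hmgcs1 probe sets, and without it the difference of the second was -0.14. For these 3 probe sets the adjusted p was 0.997 (limma, SE over n = 3 per group).

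The Fdft1 probe sets gave different pictures in cerebellum. On 1448130_at the gene had intensities of 518, 545 and 580.1 in KO and 669, 639.95 and 590.3 in WT, with no overlap and a log2 difference of -0.20 ± 0.10. On 1438322_x_at it had 845, 582 and 686 in KO and 774, 759 and 806 in WT, where KO replicate 1 was the highest of all 6 arrays. That array is the one with the raised Gapdh 3′ to 5′ ratio. The log2 difference was -0.16 ± 0.14 with all arrays, -0.29 without KO replicate 1 and -0.03 without KO replicate 2 (SE, n = 3 per group with all arrays, limma adjusted p = 0.997). Whether RNA quality has a part in this was not tested.

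Msmo1 and Nsdhl had the least separation of the sterol ring enzymes. Msmo1 had intensities of 823, 1095 and 982 in KO and 968, 1296 and 1071 in WT cerebellum, and 1 of 3 KO arrays lay below the lowest WT array. Nsdhl had 810.25, 932 and 836 in KO and 887, 1029.6 and 974 in WT, with 2 of 3 KO arrays below the lowest WT array. The log2 differences were -0.19 ± 0.14 with a 95% interval from -0.53 to 0.14, and -0.16 ± 0.10 with one from -0.39 to 0.07 (SE, n = 3 per group, limma adjusted p = 0.997 for both).

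Over the 8 probe sets the median log2 difference in cerebellum was -0.21, against -0.02 over all 27022 tested. KO and WT did not overlap, with KO lower, in 5 of 8, against 4.17% of all probe sets. Among the 7 outside the authors' cerebellum list this held for 4, and their median was -0.20. An unadjusted limma p under 0.05 with KO lower was reached by 4 of 8, and by 3 of those 7, against 1.51% of all probe sets. For 6 of the 7 the ratio of the authors' mean in WT to that in KO was under 1.2, the smallest fold in their cerebellum list. The regions came from 3 KO and 3 WT mice in all, so the cerebellum arrays are other tissue and not other animals. The 7 probe sets also stand for 5 genes of 1 pathway and are not independent. Without cerebellum KO replicate 1 the median of all 8 was -0.23, and over every array left out in turn it lay between -0.27 and -0.18. KO replicate 1 was the lowest KO array on 5 of 8 probe sets. Without it the log2 difference was smaller in size for Msmo1 (-0.09), Nsdhl (-0.12), Fdft1 1448130_at (-0.16), Hmgcs1 1433445_x_at (-0.23), Cyp51 (-0.24) and Idi1 (-0.37). The difference was larger in size for Hmgcs1 1433443_a_at (-0.24) and Fdft1 1438322_x_at (-0.29).

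**Figure D3:**
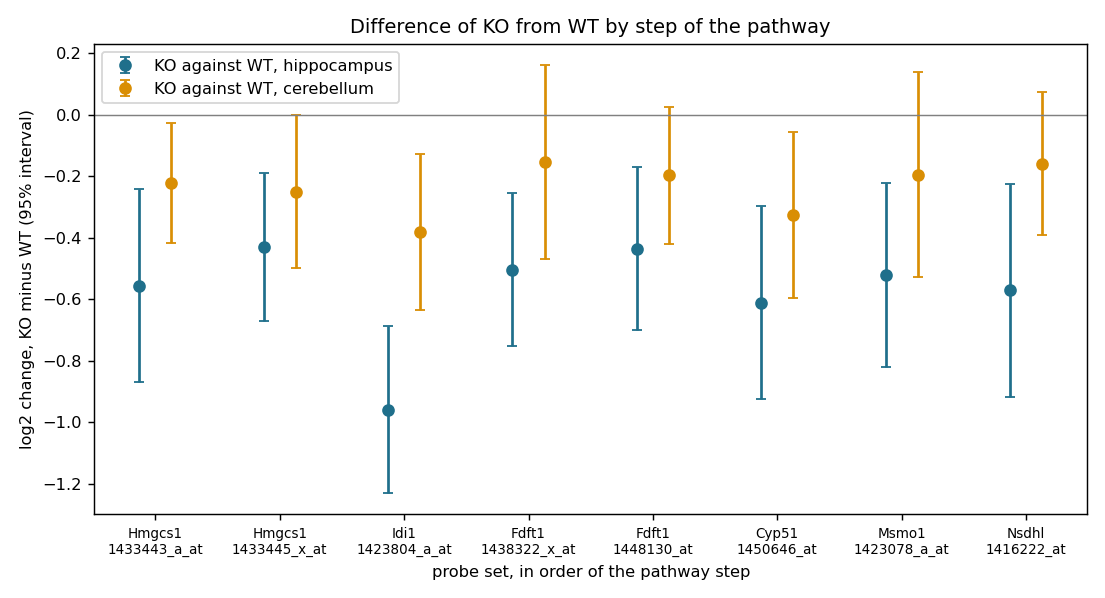
Log2 difference of KO from WT with its 95% interval from limma for each member probe set, in order of the pathway step, for hippocampus and cerebellum (3 arrays per group). Hippocampus values run from -0.96 for Idi1 to -0.43, and cerebellum values from -0.38 for Idi1 to -0.16.

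The test of the regional difference asked whether the KO effect was the same in both regions. The fit took the 12 arrays as independent, although both regions came from the same mice. The hippocampus effect minus the cerebellum effect was below 0 for all 8 probe sets, as for 46.5% of all probe sets tested, from -0.58 ± 0.16 for Idi1 to -0.18 ± 0.16 for Hmgcs1 1433445_x_at (SE, n = 3 per group). No member passed over 23283 probe sets (0 of 8, limma adjusted p = 0.9999 for each), and 1 probe set outside the members did (0.00429%). An unadjusted p under 0.05 below 0 was reached by 2 of 8, Idi1 and Nsdhl, against 2.19% of all probe sets. Choice of the members on hippocampus arrays favours a larger difference there, so the sign of these values is not independent of that choice. The 95% intervals of the other 6 included 0, the widest from -0.77 to 0.12 for Msmo1. These intervals are not adjusted for the number of probe sets. Neither a like nor a larger effect in hippocampus was shown for any of the 8.

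By level, the mean of 7 of the 8 probe sets was highest in WT hippocampus, then in KO hippocampus, WT cerebellum and KO cerebellum. For Idi1 and Cyp51 the arrays of KO hippocampus and WT cerebellum overlapped. For Msmo1 and Fdft1 1438322_x_at those of WT and KO cerebellum overlapped. Nsdhl, whose gene lies on the X chromosome, had another order, with KO hippocampus last at 789.9 ± 156, after KO cerebellum at 859 ± 64.2 and WT cerebellum at 963 ± 71.9 (SD, n = 3 each). Each of these neighbours overlapped, while WT hippocampus at 1178 ± 92.4 (SD, n = 3) lay above all of them. The WT hippocampus mean was 1.22 times the WT cerebellum mean for Nsdhl and between 1.75 and 2.76 times for the other probe sets, with no test because the regional tables may have been scaled separately.

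The members tended to vary together among the arrays of a group. KO replicate 3 was the highest hippocampus KO array on 7 of 8 probe sets, and its mean log2 distance from the WT mean over the 8 was -0.40, against -0.64 for KO replicate 1 and -0.68 for KO replicate 2. On the WT side replicate 2 was the highest hippocampus array on 5 of 8 and replicate 3 the lowest on 5 of 8. In cerebellum the mean distance was -0.28, -0.26 and -0.17 on the KO arrays and -0.05, 0.10 and -0.05 on the WT arrays. Over the 12 arrays, each centred on its group mean, the 26 pairs of probe sets of different genes had correlations from -0.41 to 0.84 with a median of 0.53, and 22 were above 0. Within hippocampus the median was 0.60 with 25 of 26 above 0, and within cerebellum it was 0.31 with 19 of 26 above 0 and a lowest value of -0.74. These arrays share the structure described above, so the values describe the arrays only.

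**Figure D4:**
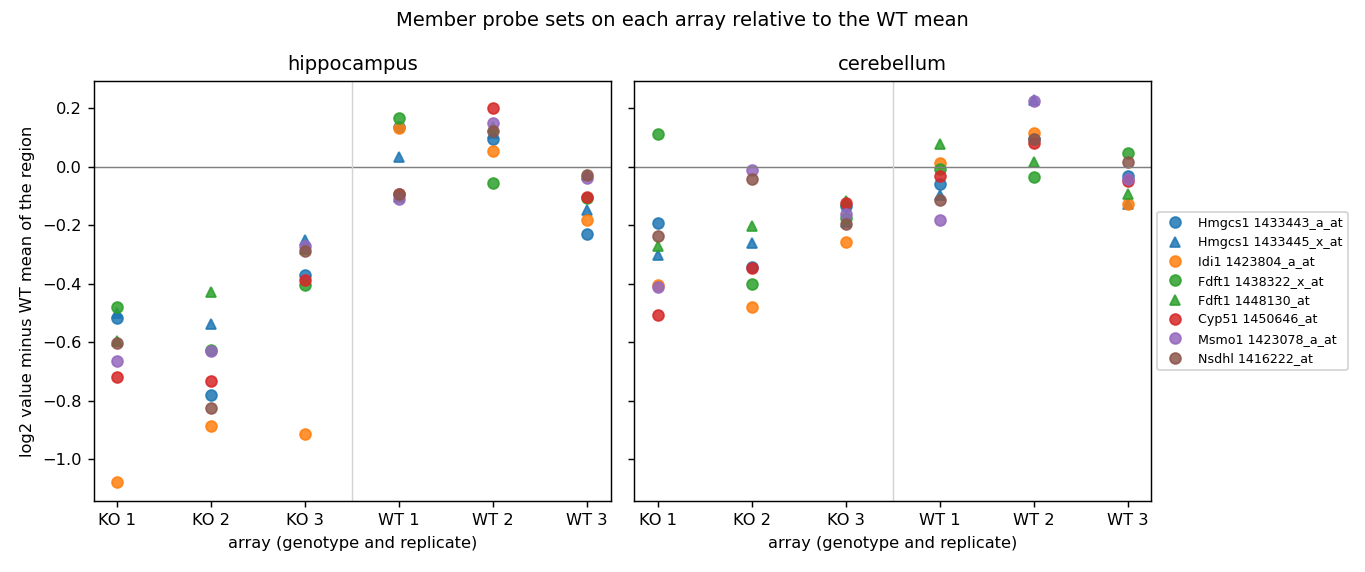
Each member probe set on each array as log2(intensity + 32) minus the mean of the WT arrays of that region; a circle or triangle is 1 probe set, with triangles for the second probe set of a gene. All 8 lie below 0 on each hippocampus KO array, while on cerebellum KO replicate 1 the Fdft1 probe set 1438322_x_at lies above 0.

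Msmo1 and Nsdhl were the pair with the highest correlation over the 12 group-centred arrays (r = 0.838) and within cerebellum (r = 0.926). Within hippocampus Cyp51 and Msmo1 had the highest (r = 0.965), and Msmo1 and Nsdhl had r = 0.889. The 2 probe sets of Hmgcs1 followed each other (r = 0.754), whereas those of Fdft1 did not (r = -0.255). Pairs with Fdft1 1438322_x_at had a median of 0.02, and the 20 pairs without it a median of 0.56. The hippocampus arrays were also parted into sets by their shared deviations, although those of KO 2 and WT 2 correlated only at r = 0.30. Among KO 1, KO 3 and WT 1 the mean over the 8 probe sets differed, KO minus WT, by -0.53. Among KO 2, WT 2 and WT 3 it differed by -0.68. With 1 array of 1 genotype in each such set, these differences have no test. The members were chosen on these same arrays, and all 8 were lower on every KO than on every WT array. Any such set therefore gives a difference below 0, and the sign shows nothing.

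Few other genes of the pathway could be named. Among regulators and targets of SREBP, Insig1 and Stard4 are given here, and neither passed in either region (0 of 2). Insig1, which holds the SREBP complex back in the endoplasmic reticulum, had a log2 difference of -0.43 ± 0.10 in hippocampus and -0.08 ± 0.15 in cerebellum. Stard4, a carrier of sterol in the cytosol, had -0.40 ± 0.12 in hippocampus and -0.28 ± 0.10 in cerebellum (SE, n = 3 per group). KO and WT arrays of Stard4 did not overlap in either region, and those of Insig1 overlapped in cerebellum. Of all probe sets tested, 4.44% in hippocampus and 4.17% in cerebellum had no overlap with KO lower. Insig1 and Stard4, too, could be named only through the authors' lists, which were selected on a difference between the genotypes.

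Among 490 other named probe sets, the 5 genes whose pattern was most like the mean of the members over the 12 arrays, each centred on its region, were Sptlc2, Ttl, Stard4, Mgat5 and Aqp4. Their correlations were 0.93, 0.93, 0.92, 0.91 and 0.91. All 5 are in the authors' hippocampus list, so part of the likeness is the shared contrast between genotypes. With each value centred on its group mean instead, the correlations were 0.68 for Sptlc2, a subunit of serine palmitoyltransferase, 0.65 for the tubulin ligase gene Ttl, 0.72 for Stard4, 0.92 for the glycosyltransferase gene Mgat5 and 0.75 for the water channel gene Aqp4, which is also on the astrocyte list below. The ranking depended on the centring: by group-centred values Mgat5 came first and the other 4 were not among the first 5. Mfsd2a, Cdkl2, Fnbp1l and Cycs followed it, with correlations of 0.88, 0.87, 0.81 and 0.79. These 4 fall outside the rule for naming and were chosen after their values were seen.

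Values of cell type markers are set beside the members, and their part in the results was not tested. The markers, too, could be named only through the authors' lists, which were selected on a difference between the genotypes. Their differences are therefore described and support nothing by themselves. No marker probe set passed the adjusted threshold in either region (0 in each list). Of 18 oligodendrocyte and myelin genes 4 were named, on 6 probe sets (Mbp, Mobp, Mal and Ermn), with a median log2 difference of -0.33 in hippocampus and 0.40 in cerebellum. Their summed intensity lay between 17674 and 18223 on KO and between 18420 and 27066 on WT hippocampus arrays, and between 15607 and 18575.5 on KO and 11664 and 12485 on WT cerebellum arrays. The members and the myelin genes thus lay on the same side of 0 in hippocampus and on opposite sides in cerebellum. WT hippocampus replicate 3 had the lowest WT sum, 18420. The members, too, had their lowest WT mean on that array, at -0.11 from the WT mean on the log2 scale, with all 8 probe sets below it. Without that array the median log2 difference of the members in hippocampus was -0.57. Whether myelin content has a part in that difference was not tested.

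Of 10 astrocyte genes 5 were named, on 9 probe sets, with a median log2 difference of 0.34 in hippocampus and 0.79 in cerebellum. In hippocampus 6 were above 0 and 3 below, and in cerebellum 7 above and 2 below. Both probe sets of Aqp4 were below 0 in both regions, as the members were, with log2 differences of -0.64 and -0.45 in hippocampus, without overlap of KO and WT arrays, and -0.15 and -0.05 in cerebellum, with overlap. The summed intensity of the 9 astrocyte probe sets lay between 25361 and 27194 on KO and 23453 and 25086 on WT hippocampus arrays, and between 16844 and 18692 on KO and 12805 and 14033 on WT cerebellum arrays. Of 11 microglia genes 6 were named, on 8 probe sets, with medians of 0.19 and 0.90. Their sums were 9766.5 to 10208.5 on KO and 7986 to 8947 on WT hippocampus arrays, and 3098 to 3507 on KO and 1561 to 1935 on WT cerebellum arrays. Of 4 red blood cell genes 1 was named, Alas2, the heme synthesis enzyme of red cell precursors, and it too had lower KO than WT means in both regions. Its intensity lay between 123.5 and 273 on KO and 258 and 339 on WT hippocampus arrays, and between 112.2 and 154.6 on KO and 169 and 234 on WT cerebellum arrays. The log2 difference was -0.64 ± 0.25 in hippocampus, with overlap, and -0.54 ± 0.14 in cerebellum, without overlap (SE, n = 3 per group, limma adjusted p = 0.9999 and 0.767). Of 6 fibroblast and meningeal genes 2 were named, with median log2 differences of 0.03 in hippocampus and 0.38 in cerebellum. Their summed intensity lay between 1423 and 2501 on KO and 1456 and 2262 on WT hippocampus arrays, and between 1347 and 1516 on KO and 957 and 1119 on WT cerebellum arrays. No named marker of these 5 lists was at 0 on any array (0 values). Among all probe sets tested, KO and WT arrays did not overlap, with KO lower, for 4.44% in hippocampus and 4.17% in cerebellum.

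**Figure D5:**
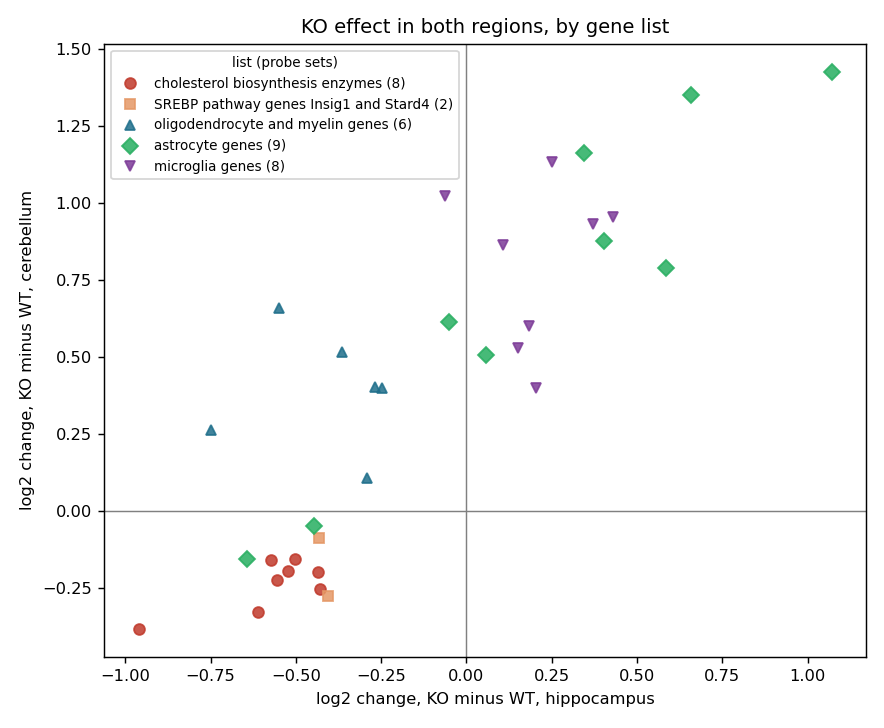
Log2 difference of KO from WT in hippocampus (horizontal axis) and cerebellum (vertical axis) for the probe sets of 5 gene lists; each point is a probe set. The 8 member probe sets lie below 0 on both axes, the 6 myelin probe sets below 0 in hippocampus and above 0 in cerebellum, and all 8 microglia probe sets above 0 in cerebellum.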

How the data were processed

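Per the labels, RNA of each sample was labelled with biotin and hybridised to 1 array. The deposited intensity values are linear and were made by the authors with dChip, per the series' design text and file headers, with a mean and standard error per group. No source used here names the background step or array normalization. The deposited value matrix equals the 2 regional tables (largest difference 0). No sample column was left unused (0) and no arrays were identical (0 pairs). The authors' deposited short lists give a signed fold change, a score that is negative where KO is lower, and an unadjusted p-value.

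The members and lists were chosen with earlier results of these data known. The lists name 610 probe sets, 537 of them with 1 current symbol (45 through a RefSeq synonym, GRCm38.p6). Genes named are the 6 members, Ercc1, the named members of fixed lists and the 5 genes most like the members; some genes that this covers are not reported here.

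Values were analysed as log2(intensity + 32). Controls were dropped, and probe sets with a mean above the 40th percentile of a region were kept; all 8 members passed in both regions, and Ercc1 did not in cerebellum. limma 3.58.1 in R 4.3.3 (intensity trend) was fitted per region, and over all 12 arrays for the regional difference. Within a region the replicates are the arrays of 3 mice per genotype, and the p-values measure the spread between them. The fit of the regional difference took the 12 arrays as independent. Its p-values therefore do not measure the spread of a difference within mice. The fit per region was tested on simulated data. Alternatives changed the pseudocount, filter, normalization, variance model, block, covariate and threshold, or left out an array; averaging the probe sets of a gene was added after the data were seen. The number of arrays limits the precision. Python 3.11.15, pandas 2.3.3, NumPy 2.4.6 and matplotlib 3.10.9 were used for exact tests, motif searches and plots.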

Additional observations from a re-analysis of the deposited data

Results flagged for a closer look

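The KO effect differed between the regions for Ctss past the threshold, by -0.88 on the log2 scale, hippocampus minus cerebellum (limma adjusted p = 0.0306). That fit took the 12 arrays as independent although both regions came from the same mice. With mice as a block, if replicate numbers name mice, Ctss no longer passed (limma adjusted p = 0.613), nor in 11 of 12 fits that left out an array (adjusted p from 0.0487 to 0.209) and 5 of the 9 other alternatives, that block included (adjusted p from 0.0212 to 0.613). For 3 myelin probe sets every KO array was below every WT array in hippocampus and above it in cerebellum: Ermn differed by -1.01 and the 2 probe sets of Mal by -0.88 and -1.21, and none passed the test of the difference (limma adjusted p = 0.869 for each). Ctss, Ermn and Mal could be named only through the authors' lists, which were selected on a difference between the genotypes. None of these is a cholesterol enzyme, and no member met either condition (0 of 8). In hippocampus 4.44% of all probe sets tested had no overlap of KO and WT arrays with KO lower. The share of all probe sets with opposite directions in the regions was not counted.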

How the results depend on the processing

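The log2 difference of every member kept its sign in hippocampus, in cerebellum and for the regional difference under every alternative run. The median over the 8 probe sets moved by less than the spread between arrays under all of them; with an array left out it lay between -0.65 and -0.45 in hippocampus, -0.27 and -0.18 in cerebellum and -0.41 and -0.26 for the regional difference. Averaging the probe sets of a gene, an alternative added after the data were seen, gave medians of -0.55 in hippocampus and -0.22 in cerebellum. The number of members past the adjusted threshold stayed at 0, also with an array left out (0 to 0), except in hippocampus with 1 fit over all 12 arrays (1, Idi1) or with the residual component (1, Idi1); that component comes from the same residuals, so it cannot move the log2 difference. At an unadjusted p under 0.05 the members past it were 8 in hippocampus, 4 in cerebellum and 2 for the regional difference. Over all probe sets, hippocampus had 6 past the threshold with 1 fit over all arrays, 8 with the residual component, 1003 at an unadjusted p and 0 to 5 with an array left out, the 5 without WT replicate 2. Cerebellum had 1 with the filter at the 60th percentile, 34 with 1 fit, 2 with the residual component, 1169 at an unadjusted p and 0 to 2 with an array left out, the 2 without KO replicate 1 or WT replicate 2. For the regional difference the 1 call, Ctss, was lost (0) with a pseudocount of 100, without the filter, without the intensity trend and with either block, 731 at an unadjusted p, and 0 to 2 with an array left out (0 without any of 11 of the 12 arrays, 2 without WT cerebellum replicate 2). The causes of these moves were not tested. Same-numbered KO and WT arrays did not deviate together throughout (r from -0.53 to 0.69 in hippocampus, -0.23 to 0.35 in cerebellum), so replicate numbers were not taken to pair arrays; with the replicate block 0 members passed in each comparison. Groups of 3 arrays limit what can be detected.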
